A study of Mus musculus with 48 samples.

Results

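The common gamma chain genes and their JAK-STAT5 pathway were followed here as 10 genes of the 34932 in the gene table. The 10 were chosen by name and not by a cut on their values, but with earlier results of these data known. They comprised 4 receptor chains (Il2rb, Il2rg, Il4ra and Il21r), 2 kinases (Jak1 and Jak3), 2 transcription factors (Stat5a and Stat5b) and 2 feedback inhibitors (Socs1 and Cish). All 10 genes were matched in the annotation, and all 10 passed the filter on low counts in each of the 23 comparisons.

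The common gamma chain is a receptor subunit shared by a family of cytokine receptors that keep lymphocytes alive, make them divide and direct their differentiation. Cytokine binding brings the gamma chain together with another chain, and the kinases JAK1 and JAK3, which sit on the receptor tails, phosphorylate STAT5 proteins that enter the nucleus and switch on target genes. Among the targets are the inhibitors CIS and SOCS1, which shut the same receptors down, so that Cish and Socs1 are part of the pathway and readouts of it at once.

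RNA was sequenced from cells of C57BL/6J mice carrying subcutaneous B16F10 tumors, a transplantable mouse melanoma line. CD4, CD8 and CD45 cell sorts were taken from the tumor (tumor-infiltrating lymphocytes, TILs) and from the inguinal lymph node that drains it (TDLN), in WT mice and in mice labelled CD4Cre Yap flox (Yap-cKO), with 4 libraries in each of 12 groups. In the Yap-cKO mice both Yap alleles are floxed, Cre is driven by the Cd4 promoter and an EYFP reporter is switched on by the same recombination. Mice were 6 to 10 weeks old, and the alleles of the WT mice beyond that name were not given in the sources used here. Since Cre acts under the Cd4 promoter, the deletion is described for T cells, and the CD45 sort, which the methods describe as lacking CD4 and CD8, holds mainly other cells. The methods describe CD4 and CD8 TILs as sorted tumor by tumor, but no source used here ties each library to a mouse, so p-values measure the spread between these libraries, which may be partly technical.

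Library totals ran from 12656302 to 24213689 counts, with a median of 17870047. T cell markers fitted the sorts, with a summed level of 1040 to 8873 CPM (counts scaled to library size) over 7 genes in the CD4 and CD8 libraries and 131.3 to 561.1 in the CD45 libraries. The CD45 libraries carried macrophage and monocyte genes in the tumor (medians 27999 CPM in WT and 23261 in Yap-cKO over 7 genes) and B cell genes in the node (9301 and 8397 CPM over 5 genes), with few natural killer cell transcripts (113.2 and 133.3 CPM over 3 genes in the tumor). Yap1 itself was near 2 CPM in all 6 TDLN groups, with no lower level in Yap-cKO, so that the deletion could not be checked there. In tumor T cell libraries Yap1 was 19.6 and 19.4 CPM in WT CD4 and CD8 against 3.23 and 4.41 in Yap-cKO, but the WT libraries also held more melanoma transcripts, as described next.

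Features of the libraries that bear on every genotype comparison are given before the results. Over 7 melanoma genes, the summed level had a median of 9432 CPM (range 5080 to 15451) in WT CD4 TILs against 845.1 (167.7 to 2246) in Yap-cKO CD4 TILs. In CD8 TILs it was 9986 (3571 to 12585) against 801 (39.7 to 2408), while TDLN libraries held 5.31 to 26.4. The summed level of 15 T-lineage genes ran the other way, with medians of 5645 and 4252 CPM in WT CD4 and CD8 TILs, 9138 and 8592 in Yap-cKO TILs, and 11545 to 13741 in the TDLN T cell groups. Values are therefore also given after scaling each library on the 15 T-lineage genes (T-lineage scaling), in which all-gene medians shifted from near 0 to -1.09 (CD4) and -1.08 (CD8) on the log2 scale between genotypes in TILs. In addition, levels above 5 CPM for both Ddx3y and Eif2s3y, genes of the Y chromosome, were found in 18 libraries, which were replicates 1, 2 and 3 of all 6 WT groups, and in none of the Yap-cKO libraries.

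Short promoter sequences were searched for the letters that STAT proteins recognize, so sites elsewhere in or around the 10 genes were not seen. RefSeq promoter windows (250 bases before to 50 after a gene's start, build GRCm38.p6) were at hand for 9 of the 10 genes, Il2rb being the exception, and were searched for TTCNNNGAA, which reads the same in its fixed letters on both strands. Of the 11 windows of these 9 genes, only the window of Cish held a match. It held 2, beginning 1 and 12 bases into the transcript, whereas 8.3% of all 32851 windows held at least 1 match and 0.457% held 2 or more. The 30 bases around them lie at chr9:107296654-107296683 on the plus strand, with the matches in capitals.
Cish: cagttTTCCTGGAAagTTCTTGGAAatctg

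Among 48 further genes of the pathway (described below), 36 had a window and 7 of their 45 windows held a match. Sites of 5 genes are shown because values of these genes are given in the comparisons below, with the first match of a window in capitals. They lie at chr16:23981433-23981461 (Bcl6, minus strand, a window with 3 matches), chrX:7580334-7580362 (Foxp3, plus), chr14:56262285-56262307 (Gzmb, minus), chr11:53617324-53617352 (Il4, minus) and chr15:9530000-9530028 (Il7r, minus).
Bcl6: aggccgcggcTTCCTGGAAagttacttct
Foxp3: gagctctgttTTCCAAGAAcgggcattag
Gzmb: ggcaggagttTTCATAGAAagca
Il4: agttcctgttTTCATGGAAacacaccact
Il7r: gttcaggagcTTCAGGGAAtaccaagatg
The Bcl6 match and the first Cish match spell the same 9 letters. A match describes letters only, and no binding was measured in these libraries.

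Per length of transcript, Il2rg was the most abundant of the 10 genes in all 12 groups, with group means of 305 to 1302 TPM (a level scaled for transcript length and depth). In the 6 TDLN groups Il21r, the receptor chain for IL-21, came next with 384.7 to 736.4 TPM. In the 4 CD4 and CD8 TIL groups the gene after Il2rg was Il2rb, which binds IL-2 and IL-15, with 243.8 to 669.8 TPM. Cish was in single digits in several groups, down to 5.64 TPM in Yap-cKO CD45 TDLN, and reached 118.1 TPM in Yap-cKO CD4 TILs. Across groups, Cish also had the widest span of mean CPM (19.98-fold from highest to lowest), followed by Il21r (13.4-fold), Il4ra (13.3-fold) and Il2rb (11.2-fold), whereas Il2rg spanned 3.11-fold. When the 12 groups were put in order of their mean for each gene, neighboring groups overlapped in nearly every case. The exceptions were Cish, where Yap-cKO CD4 TILs at the top stood clear of WT CD4 TILs, and Jak1, where Yap-cKO CD45 TILs stood clear of WT CD45 TILs.

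**Figure D1:**
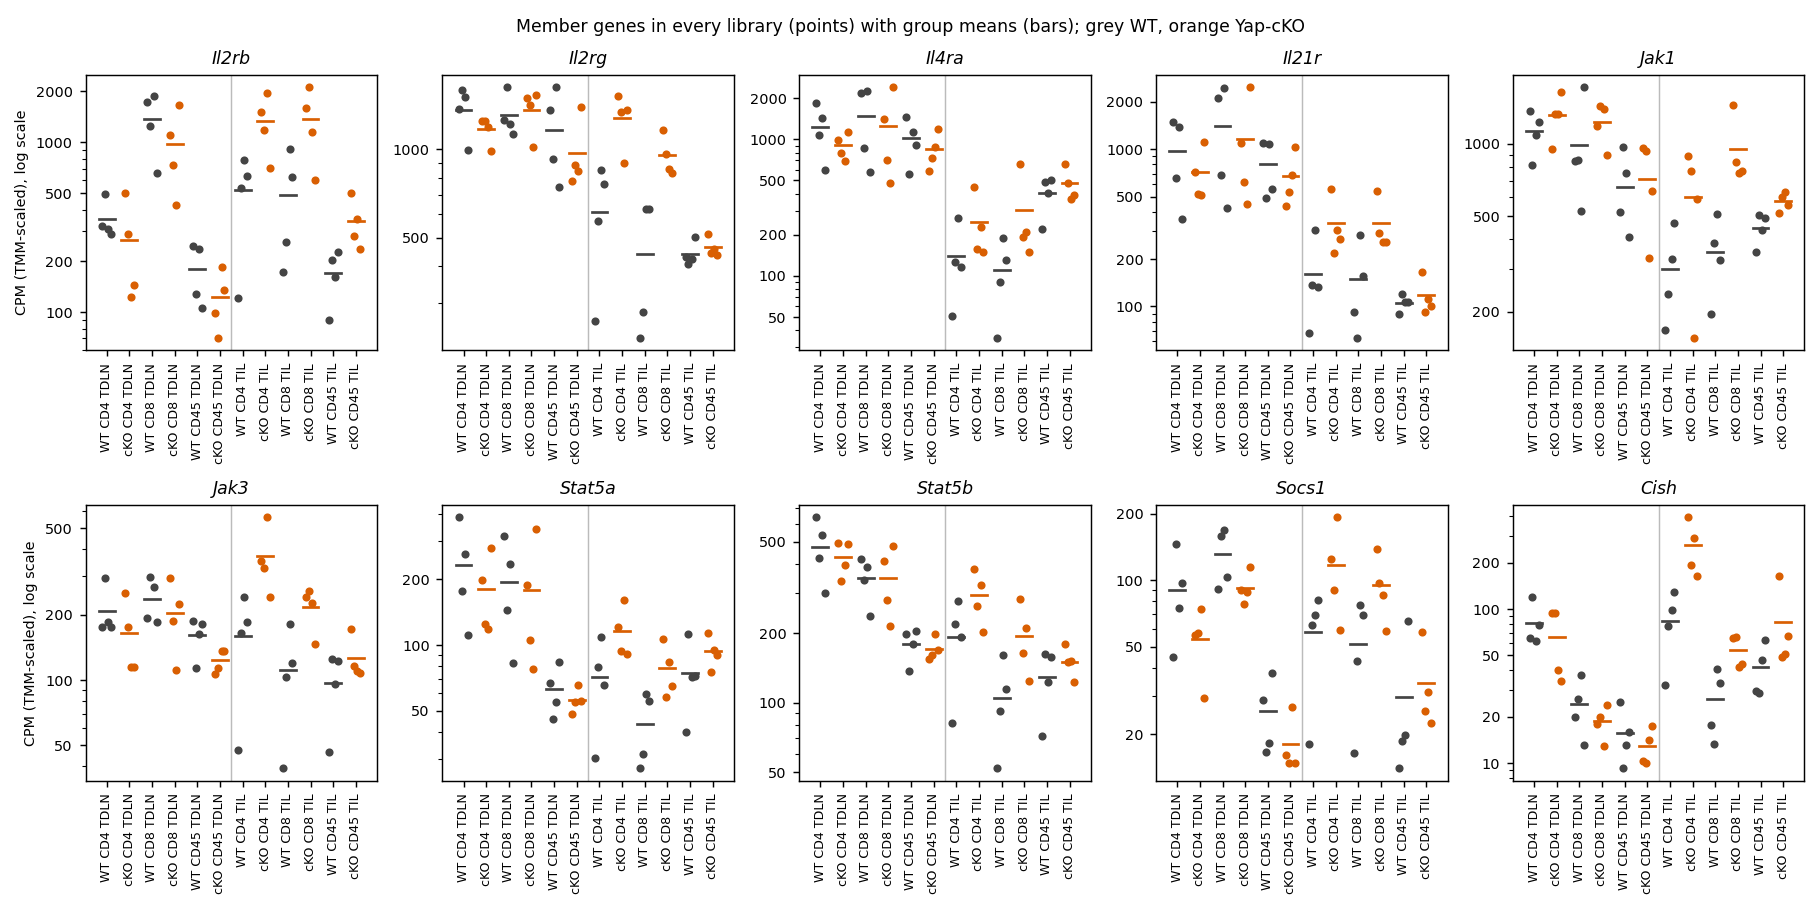
Each panel plots 1 of the 10 genes in all 48 libraries (CPM, log axis), with points for libraries, short bars for the means of 4 libraries, grey for WT and orange for Yap-cKO, and the grey line separating TDLN from TIL groups. Group means of Il4ra and Il21r are lower in CD4 and CD8 TILs than in TDLNs, and Cish is highest in Yap-cKO CD4 TILs (mean 259.9 CPM).

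The first comparison asked how T cells in the tumor differ from those in the draining node. Il4ra fell in CD4 and CD8 TILs of both genotypes, Il21r fell in WT CD4, WT CD8 and Yap-cKO CD8 TILs, and Cish rose in Yap-cKO TILs of all 3 sorts. In WT CD4 cells 6 of 10 genes were called (adjusted p under 0.05 and a change over 1 on the log2 scale), all lower in TILs, beside 37.3% of all genes tested. In WT CD8 cells 8 of 10 were called, all lower, beside 37.7%. In Yap-cKO CD4 cells 3 of 10 were called (Il2rb and Cish higher, Il4ra lower) beside 18.5%, and in Yap-cKO CD8 cells 3 of 10 (Cish higher, Il4ra and Il21r lower) beside 15.9%. In CD45 cells 4 of 10 were called in each genotype, beside 39.9% in WT and 40.3% in Yap-cKO. These all-gene shares pool both directions. In WT TILs 3203 genes were higher and 2024 lower of 14009 in CD4 cells, and 3121 and 2114 of 13894 in CD8 cells. In Yap-cKO TILs they were 1684 and 823 of 13565 in CD4 cells, and 1456 and 669 of 13347 in CD8 cells. CD45 cells had 3045 and 2505 of 13898 in WT, and 3000 and 2538 of 13734 in Yap-cKO. Libraries of the 2 tissues did not overlap for 6, 8 and 4 of the 10 genes in WT CD4, CD8 and CD45 cells. Over all genes this held for 45.5%, 41.5% and 47.6%. In Yap-cKO CD4, CD8 and CD45 cells it held for 4, 1 and 5 of the 10 genes, beside 25.7%, 22.3% and 51.6%.

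The median log2 change of the 10 genes was -1.15 in WT CD4 and -1.46 in WT CD8 cells, against -0.03 and -0.02 over all genes tested. Under T-lineage scaling the medians became 0.16 and -0.10, against 1.55 and 1.59 over all genes. In Yap-cKO CD4 and CD8 cells the medians were -0.27 and -0.45, and 0.02 and -0.07 under T-lineage scaling, against 0.23 and 0.39 over all genes. The median of the 10 genes thus lay below the all-gene median under both scalings in WT T cells. A change of scaling shifts all genes of a library nearly alike, so the second scaling adds no separate evidence for that position. Single genes lay above the all-gene median, such as Il2rb in WT CD4 (0.65, and 1.84 with T-lineage scaling) and Cish in WT CD8 cells (0.20 and 1.67). With T-lineage scaling 4, 3, 5 and 2 of the 10 genes were called in WT CD4, WT CD8, Yap-cKO CD4 and Yap-cKO CD8 cells. Over all genes 57.2%, 59%, 20.3% and 17.1% were called with that scaling. The contribution of melanoma RNA and of the T-lineage content of a library to these values was not tested, and in bulk libraries fewer cells of a type cannot be told apart from less RNA per cell.

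Among the receptor chains, Il4ra, which binds IL-4 and, with another partner, IL-13, showed the largest falls from node to tumor in T cells. In WT CD4 TDLN libraries it measured 1851, 1068, 1427 and 592.4 CPM, against 51.2, 127.2, 265.1 and 116.6 CPM in WT CD4 TILs. All 4 node libraries lay above all 4 tumor libraries, and the fitted change was -3.06 (SE 0.49, adjusted p = 0.000318). In WT CD8 cells it went from 2195, 870.9, 2275 and 576 CPM to 35.2, 89.6, 188.8 and 130.8 CPM, again without overlap (-3.67, SE 0.60, adjusted p = 0.000508). Yap-cKO CD4 libraries measured 990.3, 792.7, 691.6 and 1130 CPM in TDLNs and 448.5, 156.3, 229.8 and 149.9 in TILs (-1.94, SE 0.40, adjusted p = 0.00668). Yap-cKO CD8 libraries ranged from 475.7 to 2413 CPM in TDLNs and from 150.4 to 657.4 in TILs. These groups overlapped through replicate 1 of the TILs (-2.05, SE 0.55, adjusted p = 0.0240). The call of Il4ra in Yap-cKO CD8 cells was kept in 3 of 8 fits that left out 1 library, and lost without TDLN replicates 1 or 4 or TIL replicates 2, 3 or 4 (-2.70 to -1.52, adjusted p up to 0.0837). Under T-lineage scaling Il4ra was still called lower in all 4 T cell comparisons (-1.82, -2.26, -1.67 and -1.54). In CD45 cells the change was smaller, at -1.38 in WT (SE 0.36, adjusted p = 0.00855) and -0.90 in Yap-cKO, which passed the adjusted p (0.0119) but not the size threshold.

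Il4ra also differed in which of its transcripts the reads were assigned to, a description made after its values were seen and without a test. The share of Il4ra TPM given to its main protein-coding transcript, ENSMUST00000033004.7, averaged 43.3% (37.4% to 48.03%) in WT CD4 TDLNs and 16.9% (11.1% to 22.8%) in WT CD4 TILs. The same share was 40.8% (33.6% to 48.9%) in WT CD8 TDLNs and 18.3% (15.3% to 21.2%) in WT CD8 TILs. The Yap-cKO shares were 48.04% and 23.9% in CD4 cells, and 42.0% and 25.5% in CD8 cells, the last pair overlapping. Node T cells thus had the higher share in each pair of means, while CD45 libraries had 17.9% to 25.3% in both tissues. Most of the rest went to ENSMUST00000206846.1, annotated as a target of nonsense-mediated decay (44.9% to 76.9% over groups). Salmon estimates such shares from reads that transcripts of a gene hold in common, and an antisense gene, Gm44876, overlaps Il4ra (chr7:125552120-125579474 in GRCm38, plus strand).

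**Figure D2:**
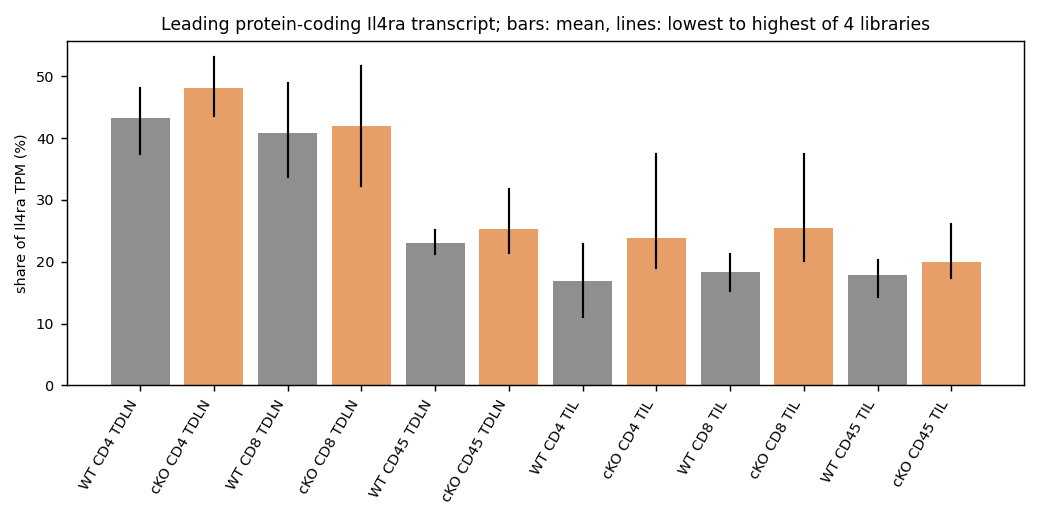
Share of Il4ra TPM (%) assigned to the protein-coding transcript ENSMUST00000033004.7, as bars for the means of 4 libraries and lines from the lowest to the highest library. The bars of the T cell TDLN groups stand at 40.8% to 48.04%, and those of the T cell TIL groups at 16.9% to 25.5%.

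Il21r lies next to Il4ra on chromosome 7 and moved in the same direction. In WT CD4 cells it measured 1491, 655.6, 1377 and 360.8 CPM in TDLNs against 67.4, 136.6, 304.9 and 132.9 CPM in TILs (-2.52, SE 0.52, adjusted p = 0.00180). In WT CD8 cells the 4 node libraries ranged from 425.8 to 2435 CPM and the 4 tumor libraries from 63.2 to 283.1 (-3.18, SE 0.64, adjusted p = 0.00199). Neither pair overlapped, and both calls held under T-lineage scaling (-1.24 and -1.78). In Yap-cKO CD8 cells the change was -1.77 (SE 0.47, adjusted p = 0.0237), with overlapping groups. That call was lost under T-lineage scaling (-1.25, adjusted p = 0.0519) and without TDLN replicate 4 or TIL replicates 2, 3 or 4 (-2.07 to -1.09). In Yap-cKO CD4 cells it was -1.14 and missed the threshold (adjusted p = 0.0631). CD45 libraries showed the fall as well, from 492 to 1097 CPM in WT TDLNs to 89.4 to 120.3 CPM in WT TILs (-2.97, SE 0.32, adjusted p = 7.63e-05), and by -2.58 in Yap-cKO (SE 0.30, adjusted p = 2.76e-05). The B cell genes of the CD45 libraries also differed between the tissues, as given above, and their part in the Il21r difference was not tested.

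Il2rg, the common gamma chain itself, fell less and only on the TMM scale. WT CD4 libraries held 1373, 1585, 1504 and 991.7 CPM in TDLNs and 259, 569.9, 846.9 and 760.9 in TILs, without overlap (-1.07, SE 0.34, adjusted p = 0.0224). WT CD8 libraries held 1129 to 1623 CPM in TDLNs and 227.7 to 625.3 in TILs (-1.50, SE 0.37, adjusted p = 0.00659). Under T-lineage scaling the changes were 0.24 and -0.10, against all-gene medians of 1.55 and 1.59, so the direction in CD4 cells turned. The CD4 call was also lost without WT CD4 TIL replicate 1 or 2 (-1.21 to -0.76 over 8 fits). In Yap-cKO cells Il2rg was 0.08 in CD4 and -0.51 in CD8, neither called. In CD45 cells it was lower in TILs in both genotypes, by -1.44 in WT (adjusted p = 0.00175) and -1.14 in Yap-cKO (adjusted p = 0.000744).

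Il2rb rose in Yap-cKO CD4 TILs, and in WT CD8 TILs it was lower on the TMM scale. In Yap-cKO CD4 cells it rose from 503, 289, 122.3 and 144.2 CPM in TDLNs to 1511, 1188, 1955 and 701.3 CPM in TILs. The lowest tumor library lay above the highest node library (2.26, SE 0.50, adjusted p = 0.00917), and T-lineage scaling gave 2.61. WT CD4 libraries held 289.3 to 495.5 CPM in TDLNs and 121, 535.9, 791.7 and 634.5 CPM in TILs, with replicate 1 of the TILs below every node library. The change there was 0.65 (SE 0.44, adjusted p = 0.243), but 1.84 and called under T-lineage scaling. In WT CD8 cells, where Il2rb was high in the node (1721, 1245, 1861 and 658.9 CPM), TILs held 172.2, 258.4, 907.5 and 620.7 CPM. These groups overlapped, and the call (-1.42, SE 0.51, adjusted p = 0.0422) was kept in 2 of 8 fits that left out a library (-1.82 to -1.09) and became -0.09 under T-lineage scaling. Yap-cKO CD8 libraries held 428.9 to 1661 CPM in TDLNs and 597.9 to 2114 in TILs, which was not a called difference. In Yap-cKO CD45 cells Il2rb rose from 70.6 to 184.8 CPM in TDLNs to 234.7 to 506.3 CPM in TILs (1.42, SE 0.32, adjusted p = 0.00295), and in WT CD45 cells it was -0.11.

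Of the kinases, Jak1, which pairs with the cytokine-specific chains, fell in WT CD4 and CD8 TILs, and Jak3, which binds the gamma chain, was not called between tissues in any of the 6 groups. Jak1 in WT CD4 cells went from 817.4 to 1368 CPM in TDLNs to 168.6 to 469.3 CPM in TILs without overlap (-1.82, SE 0.34, adjusted p = 0.00102). In WT CD8 cells it was -1.39 (SE 0.41, adjusted p = 0.0159), with TDLN replicate 3 (525.3 CPM) just above the highest tumor library (510.7 CPM). The CD8 call was lost without TDLN replicate 4 or TIL replicates 1 or 4 (-1.60 to -0.98). T-lineage scaling took Jak1 to -0.49 and 0.00, neither called. Jak3 changed by -1.01 in WT CD8 cells (SE 0.38, adjusted p = 0.0502) and by 1.11 in Yap-cKO CD4 cells (SE 0.36, adjusted p = 0.0523), both just missing the threshold. In Yap-cKO CD4 TILs it measured 352.1, 329, 561 and 242.3 CPM, against 250.4, 175.7, 115 and 114.4 in TDLNs, and T-lineage scaling called it higher (1.39, adjusted p = 0.00391). For WT CD8 cells the same scaling gave 0.43, the other direction.

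Stat5a and Stat5b, near-identical neighbors on chromosome 11 whose reads may be split with some error, both fell in WT CD4 and CD8 TILs. Stat5a went from 385.6, 177.6, 261 and 111.1 CPM in WT CD4 TDLNs to 30.5, 79.1, 108.7 and 65.9 CPM in TILs, the highest tumor library lying just under the lowest node library (-1.64, SE 0.42, adjusted p = 0.00693). Stat5a in WT CD8 cells was -2.08 (SE 0.42, adjusted p = 0.00206) and Stat5b -1.65 (SE 0.34, adjusted p = 0.00242). Stat5b in WT CD4 cells was -1.22 (SE 0.36, adjusted p = 0.0145), a call lost without WT CD4 TIL replicate 1 (-0.91). None of the 4 calls remained under T-lineage scaling, where Stat5a was -0.33 and -0.59 and Stat5b 0.08 and -0.18 in CD4 and CD8 cells. In Yap-cKO T cells the changes were -0.62 to -1.17 and none was called. In CD45 cells Stat5a rose slightly in Yap-cKO TILs (0.67, adjusted p = 0.00884), under the size threshold, and Stat5b did not pass the test in either genotype. The balance of Stat5b transcripts differed between groups too, described without a test. ENSMUST00000004143.2 took 26.7% of Stat5b TPM in WT CD4 TDLNs, 52.6% in WT CD4 TILs and 72.9% in Yap-cKO CD45 TILs.

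Of the inhibitors, Cish, which encodes CIS, was called higher in tumor in 4 of 6 comparisons. In Yap-cKO CD4 cells it rose from 94.4, 94.8, 40 and 34.3 CPM in TDLNs to 394, 194.2, 288.1 and 163.3 CPM in TILs. Every tumor library exceeded every node library (1.91, SE 0.43, adjusted p = 0.0105). In Yap-cKO CD8 cells it rose from 18, 20, 12.8 and 23.8 CPM to 64.9, 65.9, 42.1 and 44.3 CPM, again with a clear gap (1.54, SE 0.24, adjusted p = 0.00151). T-lineage scaling gave 2.26 and 1.97, both called. In CD45 libraries, Cish rose from 9.28 to 24.8 CPM in WT TDLNs to 28.5 to 62.9 CPM in WT TILs (1.37, SE 0.36, adjusted p = 0.00992). In Yap-cKO CD45 cells it rose from 10 to 17.4 CPM to 48.9 to 164 CPM (2.61, SE 0.40, adjusted p = 0.000254). In WT T cells the TMM values were 0.14 and 0.20, neither called, while T-lineage scaling called Cish higher in both (1.44 and 1.67), at about the all-gene medians of 1.55 and 1.59.

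Socs1 fell in WT CD8 TILs, from 91.1, 158.6, 169.2 and 103.7 CPM in TDLNs to 16.5, 42.8, 77.3 and 69.6 CPM (-1.27, SE 0.41, adjusted p = 0.0269). The groups did not overlap, but the call was lost without TDLN replicates 2 or 3 or TIL replicates 1 or 2 (-1.45 to -0.92), and T-lineage scaling gave 0.15. In Yap-cKO CD4 cells Socs1 measured 56.5, 57.4, 74.1 and 29.2 CPM in TDLNs and 124.8, 90.2, 192.1 and 59.2 in TILs (1.03, SE 0.40, adjusted p = 0.0940). T-lineage scaling called that difference (1.26, adjusted p = 0.0230).

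The second comparison set Yap-cKO against WT within each sort and tissue. In the TIL sorts all 10 genes had a higher estimate in Yap-cKO, and 1 of them passed the test. In CD8 TILs this was Jak1, 1 of 10 called beside 12.2% of all genes. There 9 of 10 had an unadjusted p under 0.05, beside 4792 of all 14121 genes tested. DESeq2 called 3, beside 18.2% of all genes. In CD4 TILs 0 of 10 were called beside 8.02%. An unadjusted p under 0.05 was found for 5 of 10, beside 3482 of 14205 genes. DESeq2 called 1, beside 15%. In CD45 TILs 0 of 10 were called beside 0.991%. An unadjusted p under 0.05 was found for 3 of 10, beside 2425 of 13628 genes. DESeq2 called 1, beside 3.87%. In TDLNs edgeR and DESeq2 called 0 of 10 in CD4, CD8 and CD45 cells. Over all genes edgeR called 0.0462%, 0.0158% and 0.0596%, and DESeq2 0.162%, 0.119% and 0.119%. An unadjusted p under 0.05 was found for 0 of 10 in each, beside 228 of 12992, 120 of 12651 and 391 of 13432 genes.

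In CD4 TILs the 10 estimates ran from 0.59 to 1.60 with a median of 1.03, against an all-gene median of 0.14. In CD8 TILs they ran from 0.76 to 1.39 with a median of 1.00, against 0.08. Under T-lineage scaling the medians were 0.12 and 0.10, against -1.09 and -1.08 over all genes. With that scaling 0 of 10 genes were called in either sort, beside 24.1% and 39.5% of all genes. The 10 estimates stood above the all-gene median under both scalings. A change of scaling shifts all genes of a library nearly alike, so the second scaling adds no separate evidence for that position. Libraries of the 2 genotypes did not overlap for 3, 3 and 2 of the 10 genes in CD4, CD8 and CD45 TILs. Over all genes this held for 17.1%, 21.8% and 11.6%. Melanoma and T-lineage levels moved with genotype in the same libraries, as given above, and their part in these differences was not tested. In TDLNs the medians were -0.32, -0.23 and -0.22 in CD4, CD8 and CD45 cells. With a term for the Y-linked genes Ddx3y and Eif2s3y the first 2 turned, to 0.17 (6 of 10 genes positive in place of 1) and 0.43 (8 in place of 2), and CD45 TDLNs gave -0.10. The same term took CD45 TILs from 10 to 6 positive estimates and left all 10 positive in CD4 and CD8 TILs. The term marks WT replicates 1, 2 and 3, so its genotype estimates set WT replicate 4 alone against the Yap-cKO libraries. Directions between genotypes in TDLNs and in CD45 TILs thus depended on which WT libraries were used. Such a fit cannot separate the Y-linked difference from genotype.

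**Figure D3:**
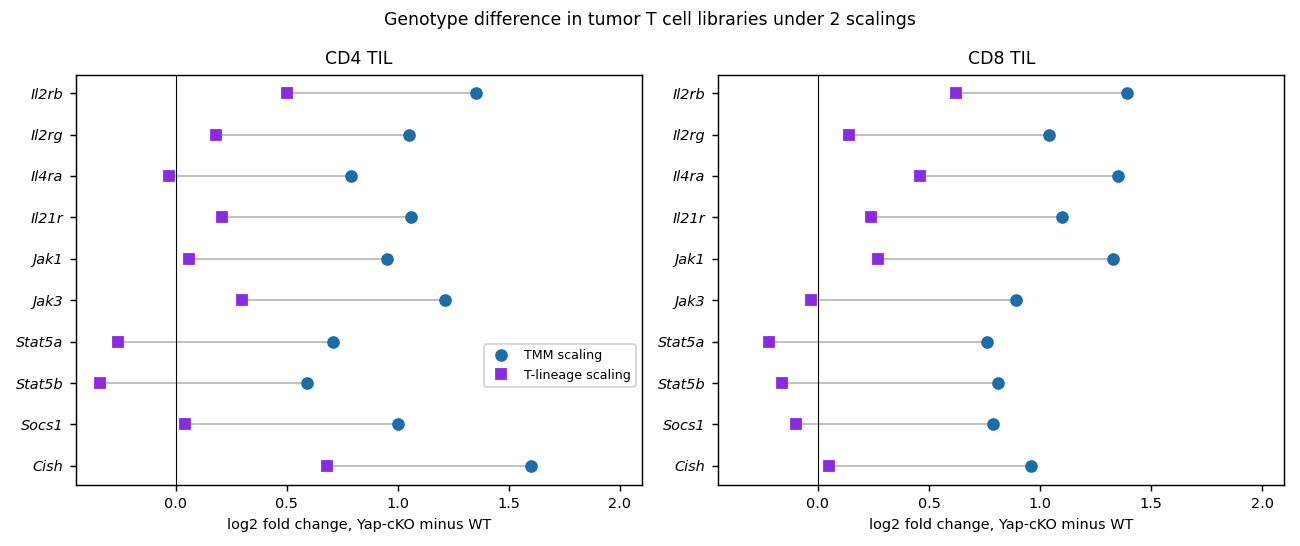
Log2 fold change (Yap-cKO minus WT) of the 10 genes in CD4 and CD8 TILs under TMM scaling (blue circles) and T-lineage scaling (purple squares), joined by a line for each gene. Circles lie between 0.59 and 1.60, and squares between -0.34 and 0.68.

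Jak1 measured 196.1, 388.4, 510.7 and 329.2 CPM in the WT CD8 TIL libraries, against 1449, 837.2, 757.2 and 770.2 CPM in those of Yap-cKO mice. All Yap-cKO libraries were above all WT libraries, with replicate 1 far above the other Yap-cKO libraries (1.33, SE 0.33, adjusted p = 0.0293). Markers of other cells also moved with genotype in these CD8 libraries. The summed level of 7 macrophage and monocyte genes had a median of 411.5 CPM in WT (240.4 to 583.7) and 1291 in Yap-cKO (652.2 to 1825), and that of 7 fibroblast and pericyte genes 105.7 (40.1 to 709.5) and 9.42 (5.46 to 11.0). Their part in the Jak1 difference was not tested. The call of Jak1 was kept in 2 of 8 fits that left out a library, those without WT replicate 3 or Yap-cKO replicate 3. Without any other single library the adjusted p rose to as much as 0.0821, with estimates of 1.08 to 1.59 over the 8 fits. With a term for the Y-linked genes Ddx3y and Eif2s3y the Jak1 estimate was 1.46, a difference from WT replicate 4 alone. T-lineage scaling gave 0.27. Genotype and this Y-linked mark are largely confounded in these libraries, since only WT libraries carry it.

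Cish came nearest to the threshold in CD4 TILs, at 32.3, 77.4, 98.5 and 129.1 CPM in WT against 394, 194.2, 288.1 and 163.3 in Yap-cKO. The groups did not overlap (1.60, SE 0.44, adjusted p = 0.0511). DESeq2 called this difference, T-lineage scaling gave 0.68 and the Y-linked term 0.94. The summed level of 4 regulatory T cell genes moved with it, with a median of 579.5 CPM in WT (273.5 to 677.4) and 1810 in Yap-cKO CD4 TILs (750.1 to 2548). Its part in the Cish difference was not tested. In CD8 TILs Cish was 17.8, 13.3, 40.8 and 33 CPM in WT and 64.9, 65.9, 42.1 and 44.3 in Yap-cKO, a narrow gap between groups (0.96, SE 0.35, adjusted p = 0.0858).

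Il2rb was the receptor chain with the largest estimates between genotypes. In CD4 TILs it was 1.35 (SE 0.53, adjusted p = 0.149) and in CD8 TILs 1.39 (SE 0.53, adjusted p = 0.0999), in each case with overlapping libraries. In CD45 TILs the WT libraries held 90.1, 202.7, 161.5 and 226.4 CPM and the Yap-cKO libraries 506.3, 281.1, 351.5 and 234.7 CPM. The 4 Yap-cKO libraries were all higher, yet the difference did not pass (1.01, SE 0.30, adjusted p = 0.135). In the same CD45 libraries the medians of melanoma genes (1565 CPM in WT, 346.9 in Yap-cKO), of 5 B cell genes (1366 and 509.2) and of 4 regulatory T cell genes (16.9 and 32.2) also differed between genotypes. None of these groups overlapped save in B cell genes, and their part in the Il2rb difference was not tested. Under T-lineage scaling Il2rb was 0.50 in CD4 and 0.62 in CD8 TILs.

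Of the other receptor chains, Il2rg did not overlap between genotypes in CD4 TILs (259 to 846.9 CPM in WT, 896.9 to 1520 in Yap-cKO) or in CD8 TILs (227.7 to 625.3 against 832.8 to 1167). Its estimates were 1.05 (adjusted p = 0.129) and 1.04 (adjusted p = 0.0691), and 0.18 and 0.14 under T-lineage scaling. Il4ra was 0.79 and 1.35, and Il21r 1.06 and 1.10, in CD4 and CD8 TILs. In CD8 TILs the Yap-cKO means of both rested partly on replicate 1, at 657.4 CPM for Il4ra and 545.7 CPM for Il21r, well above the other libraries.

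Jak3 was 1.21 in CD4 TILs (47.7 to 240.6 CPM in WT, 242.3 to 561 in Yap-cKO, adjusted p = 0.142) and 0.89 in CD8 TILs. Stat5a and Stat5b had the smallest estimates in CD4 TILs (0.71 and 0.59) and turned negative under T-lineage scaling (-0.26 and -0.34). Replicate 1 of WT CD4 TILs was the lowest of its group for all 10 genes.

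The third comparison set cell sorts against each other. Il2rb and Cish separated CD8 from CD4 cells, in opposite directions. In WT TDLNs 2 of 10 genes were called, beside 3.76% of all genes. Il2rb was higher in CD8 cells (658.9 to 1861 CPM against 289.3 to 495.5, 1.98, SE 0.34, adjusted p = 0.00772). Cish was lower (13 to 37.5 CPM against 61.6 to 120.6, -1.73, SE 0.34, adjusted p = 0.0176). In Yap-cKO TDLNs 1 of 10 was called beside 2.49%, which was Cish (12.8 to 23.8 CPM against 34.3 to 94.8, -1.81, SE 0.35, adjusted p = 0.0243), while Il2rb was 1.89 (SE 0.49, adjusted p = 0.0877). Both Cish calls in TDLNs depended on single libraries, being lost without CD8 replicates 1 or 2 or CD4 replicate 2 in WT (-2.01 to -1.51, adjusted p up to 0.0704), and without CD8 replicates 1 or 2 or CD4 replicates 1 or 2 in Yap-cKO (-2.01 to -1.58, up to 0.0853).

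In Yap-cKO TILs Cish was again the 1 of 10 genes called, beside 2.49% (42.1 to 65.9 CPM in CD8 against 163.3 to 394 in CD4 cells, -2.24, SE 0.34, adjusted p = 0.00731), and this call was kept in every fit that left out a library. Il2rb did not separate the sorts in TILs, with estimates of -0.05 in WT and 0.05 in Yap-cKO. In WT TILs 0 of 10 genes were called by edgeR beside 0.119% of all genes. An unadjusted p under 0.05 was found for 1 of 10 (Cish, -1.65, SE 0.46), beside 541 of 14266 genes. DESeq2 called 1, beside 1.04%. Regulatory T cell genes were higher in CD4 than in CD8 libraries of Yap-cKO TILs (1810 against 325.5 CPM over 4 genes), and their part in the Cish difference was not tested.

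Against the mean of CD4 and CD8 cells, the CD45 sort had lower levels of 5 of 10 genes in TDLNs of each genotype, beside 25.2% of all genes in WT and 24.3% in Yap-cKO. These were Il2rb (-1.99 and -2.10), Stat5a (-1.78 and -1.71), Stat5b (-1.20 and -1.21), Socs1 (-2.11 and -2.01) and Cish (-1.51 and -1.47). The remaining genes, among them Il2rg (-0.23 and -0.40), did not pass in WT TDLNs, and in Yap-cKO TDLNs Jak1 passed the adjusted p (0.0359) but not the size threshold. In WT TILs 2 of 10 were called beside 34.3%, with Il2rb lower (-1.60) and Il4ra higher (1.66, adjusted p = 0.00507) in CD45 cells. The Il2rb call there was lost without CD45 replicates 1 or 3 (-1.74 to -1.36, adjusted p up to 0.0740). In Yap-cKO TILs 5 of 10 were lower beside 31.7%, which were Il2rb (-1.95), Il2rg (-1.24), Il21r (-1.51), Jak3 (-1.14) and Socs1 (-1.59). Over all genes 1954 were higher and 1572 lower in CD45 cells of WT TDLNs, and 1736 and 1712 in Yap-cKO TDLNs. In TILs they were 2352 and 2773 in WT, and 2494 and 2140 in Yap-cKO. All 4 of these comparisons share T cell libraries with the comparisons above.

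The fourth comparison asked whether the genotype difference itself depended on the tissue, tested as an interaction. None of the 10 genes was called in CD4, CD8 or CD45 cells by edgeR or DESeq2. Over all genes edgeR called 1.36%, 0.422% and 0%, and DESeq2 5.58%, 4.81% and 0.8%. An unadjusted p under 0.05 was reached by 6, 5 and 2 of the 10 genes, beside 2239 of 15087, 2333 of 14937 and 1246 of 14871. All 10 estimates were positive in each sort, meaning a more positive genotype difference in TILs than in TDLNs, with medians of 1.34, 1.17 and 0.43. T-lineage scaling took the CD4 and CD8 medians to 0.25 and 0.21, against -1.25 and -1.16 over all genes. The largest were those of Cish in CD4 cells (1.88, SE 0.60, adjusted p = 0.126) and of Il2rb (1.75, 1.85 and 1.49 in CD4, CD8 and CD45 cells).

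Around these 10 genes, 48 further genes of the pathway were read from a fixed list of 6 receptor chains, 8 ligands, 7 kinases and STAT proteins, 12 inhibitors and 15 genes known as STAT5 targets. Between WT TILs and TDLNs, 5 were higher and 8 lower of 44 tested in CD4 cells, beside 37.3% of all genes called. In WT CD8 cells 6 were higher and 10 lower of 42, beside 37.7%. In Yap-cKO CD4 cells 13 were higher and 2 lower of 45, beside 18.5%. In Yap-cKO CD8 cells 9 were higher and 0 lower of 42, beside 15.9%. With T-lineage scaling the counts became 22 and 1, 16 and 0, 16 and 0, and 7 and 0. Over all genes 57.2%, 59%, 20.3% and 17.1% were called with that scaling. Most of the falls were not kept, while the all-gene medians also moved upward, to 1.55, 1.59, 0.23 and 0.39. In CD45 cells 12 rose and 7 fell of 40 tested in WT, beside 39.9% of all genes. In Yap-cKO 17 rose and 6 fell of 41, beside 40.3%. The all-gene shares pool both directions, and their counts by direction are given above with those of the 10 genes.

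Of the 15 STAT5 targets, 2 rose and 4 fell in WT CD4 and 3 rose and 3 fell in WT CD8 TILs. The shares of all genes called were 37.3% and 37.7%. In Yap-cKO TILs 6 rose and 2 fell in CD4 and 4 rose and 0 fell in CD8, beside 18.5% and 15.9%. Gzmb, which encodes the killing protease granzyme B, rose from 3.45 to 5.27 CPM in WT CD8 TDLNs to 52.3 to 227 CPM in WT CD8 TILs (5.23, SE 0.47, adjusted p = 1.1e-05), and by 5.61 in Yap-cKO CD8 cells. In CD4 cells Gzmb rose by 2.59 in WT and 4.61 in Yap-cKO. Socs2, an inhibitor and STAT5 target of the Cish family, rose by 1.80 and 1.58 in WT CD4 and CD8 cells and by 3.63 and 1.94 in Yap-cKO CD4 and CD8 cells. It reached 18.8 to 107.2 CPM in Yap-cKO CD4 TILs from 3.16 to 6.58 in the node. Bcl6, a repressor known to oppose STAT5 in helper cells, fell by 2.73 in WT CD4 and by 2.15 in WT CD8 cells on the log2 scale. The survival gene Mcl1 decreased by 1.66 in WT CD4 and the kinase gene Pim2 by 1.96 in WT CD8 cells on the log2 scale. In Yap-cKO CD4 TILs Foxp3, the regulatory T cell factor, rose by 2.37 and Id2, a regulator of effector T cells, by 2.39, and in Yap-cKO CD8 TILs Osm rose by 1.95. Under T-lineage scaling Gzmb, Foxp3, Id2 and Osm kept the calls named here, Socs2 kept 3 of 4 (not that in Yap-cKO CD8 cells), Bcl6 kept that in WT CD4 cells, and those of Mcl1 and Pim2 were lost.

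Of the 6 receptor chains, 1 rose (Il13ra1) and 1 fell (Il7r) in both WT CD4 and WT CD8 TILs, and 3 rose and 0 fell in both Yap-cKO CD4 and CD8 TILs. In CD45 TILs 3 rose and 1 fell in WT, and 4 rose and 1 fell in Yap-cKO. The shares of all genes called in these tissue comparisons are those given above for the 10 genes. Few of the 8 ligands could be tested, and those called were higher, being 1 of 4 in WT CD4, 1 of 2 in WT CD8, 3 of 5 in Yap-cKO CD4, 1 of 2 in Yap-cKO CD8 and 1 of 1 in each CD45 comparison. Il2, the ligand of the Il2rb and Il2rg chains, went from 0.373 to 1.11 CPM in Yap-cKO CD8 TDLNs to 2.34 to 4.10 CPM in TILs (2.41). Il2ra, the high-affinity IL-2 receptor chain, went from 2.73 to 7.74 CPM to 10.5 to 21.9 CPM in the same groups (1.70). In Yap-cKO CD4 cells Il4 went from 0.107 to 1.42 CPM in TDLNs to 1.84 to 7.72 CPM in TILs. In WT CD4 cells Il15 was 0.113 to 0.165 CPM in TDLNs, near the limit of counting, and 1.27 to 3.86 CPM in TILs. Il13ra1, which pairs with Il4ra, went from 0 to 0.605 CPM in WT CD4 TDLNs to 7.67 to 13.1 CPM in TILs. In CD45 libraries, Il15 (4.19 in WT, 4.64 in Yap-cKO), Il13ra1 (4.50 and 5.55), Osm (3.53 and 5.94) and Lif (3.18 and 3.92) rose in TILs, where macrophage genes were also higher. Their part in these changes was not tested.

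Between genotypes, Yap-cKO CD4 TILs had 3 of the 45 pathway genes tested called higher than in WT and 1 called lower, beside 8.02% of all genes called. Yap-cKO CD8 TILs had 4 and 1 of 43 tested, beside 12.2%. With both directions pooled, these shares were close to those of all genes, but the directions differed. Over all genes 193 were called higher and 946 lower of 14205 in CD4 TILs. In CD8 TILs 428 were called higher and 1291 lower of 14121. In CD4 TILs these were Foxp3 (WT 167.6 ± 70.3 CPM, Yap-cKO 504.1 ± 85.7 CPM, SD, n = 4, 1.57, edgeR adjusted p = 0.0256), Bcl2l1 (1.08), Il13 and, lower, Il13ra1 (-2.12). Il13 was near the limit of counting in WT (mean 0.227 CPM) and ran from 0.595 to 16.9 CPM in Yap-cKO. In CD8 TILs they were Il9r (2.29), Il7r (1.87, 46.0 to 101.2 CPM in WT and 126.4 to 489.6 in Yap-cKO), Stat4 (1.66), Jak2 (1.54) and, lower, Il13ra1 (-2.22). Under T-lineage scaling Il13 and Il13ra1 were still called and the others named here were not. With that scaling 3 further genes were called lower, being Sh2b3 (-1.57 and -1.77) and Myc (-1.84 and -1.64) in CD4 and CD8 TILs, and Ptpn11 (-1.26) in CD8 TILs. The all-gene medians there were -1.09 in CD4 and -1.08 in CD8 TILs, with 24.1% and 39.5% of all genes called. By edgeR, 0 of 43 pathway genes tested were called between genotypes in CD45 TILs, beside 0.991% of all genes. An unadjusted p under 0.05 was found for 12, beside 2425 of 13628 genes. In CD4, CD8 and CD45 TDLNs 0 of 43, 38 and 40 tested were called, beside 0.0462%, 0.0158% and 0.0596%. There 1, 0 and 1 had an unadjusted p under 0.05, beside 228 of 12992, 120 of 12651 and 391 of 13432. In the interactions 0 of 45, 43 and 43 tested were called in CD4, CD8 and CD45 cells, beside 1.36%, 0.422% and 0% of all genes. An unadjusted p under 0.05 was found for 15, 5 and 4, beside 2239 of 15087, 2333 of 14937 and 1246 of 14871.

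Between CD8 and CD4 cells, Foxp3 and Il2ra, both regulatory T cell genes, were lower in CD8 cells of WT TDLNs (-6.35 and -3.65), Yap-cKO TDLNs (-5.67 and -3.68) and Yap-cKO TILs (-5.97 and -4.11). Socs2, like Cish, was lower in CD8 cells of Yap-cKO TILs (-3.35). Prf1, which encodes perforin, was higher in CD8 cells of TDLNs in both genotypes (2.02 and 2.02). In WT TILs Foxp3 alone was called (-6.53). In WT TDLNs, Yap-cKO TDLNs, WT TILs and Yap-cKO TILs, 1, 2, 0 and 2 of the 48 genes were higher in CD8 cells. In the same order 7, 3, 1 and 8 were lower, beside 3.76%, 2.49%, 0.119% and 2.49% of all genes called. Over all genes 205, 168, 10 and 157 were higher in CD8 cells and 276, 155, 7 and 189 lower. In CD45 against T cells, 9 were higher and 10 lower in WT TDLNs and 8 and 10 in Yap-cKO TDLNs, beside 25.2% and 24.3%. In TILs the counts were 18 and 6 in WT and 16 and 9 in Yap-cKO, beside 34.3% and 31.7%.

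Across the 12 group means, the levels of the 10 genes fell into sets, given as a description because the groups share libraries of 1 experiment and 12 points are few. On the log2 scale, Il2rg and Il21r (Pearson r = 0.93), Stat5a and Stat5b (0.93) and Il2rb and Socs1 (0.914) were the most alike, and Il4ra and Cish (-0.398) and Il21r and Cish (-0.359) the least. Among 16859 genes compared over these 12 means, those nearest to Il4ra were Plcb2 (0.988), Il17ra (0.985) and Map3k3 (0.985), and nearest to Il21r were Taf8 (0.993), Taf1c (0.992) and Arfrp1 (0.991). Nearest to Il2rb were Ppm1n (0.956) and Baiap3 (0.95), and nearest to Il2rg were Ccndbp1 (0.985) and Polr3gl (0.982). Cbfb (0.978) was nearest to Jak1, Cd82 (0.953) to Jak3, Galnt6 (0.982) to Stat5a, Spint2 (0.968) to Stat5b and Sla2 (0.973) to Socs1. Cish had C1qtnf12, Castor1 and Fam110a, each at 0.95.

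Several of the 10 genes overlap others in the annotation, which unstranded reads could not separate. Il2rg (chrX:101264378-101268255) shares its strand with Gm20489, Jak3 (chr8:71676296-71690575) with Insl3, and Jak1 (chr4:101152367-101265282) with a processed pseudogene, Gm12785. On the other strand Jak1 also meets the protein-coding gene Raver2 and the small nuclear RNA gene Gm24468. Stat5a (chr11:100859351-100885169) meets Stat3 on the other strand, and Cish (chr9:107296026-107302784) meets Gm17040 and Gm17041. Il2rb (chr15:78479256-78495271), Il21r (chr7:125603429-125633570), Stat5b (chr11:100780731-100850724) and Socs1 (chr16:10782240-10785536) overlap no other gene. How reads were split between overlapping genes was not tested.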

How the data were processed

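RNA of 48 libraries (12 groups of 4) was sequenced after SMART-Seq v4 amplification, a kit that does not mark strand. The authors deposited Salmon tables for 112092 transcripts (version 0.9.1 per the labels, which also name FastQC, Trimmomatic and build mm10), holding expected counts and TPM values per transcript. Here expected counts were summed to 34932 genes with GENCODE M21 (111787 transcripts matched, and 0.0488% to 0.18% of counts did not) and rounded. TPM, which the authors deposited per transcript, was summed to compare levels between genes.

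A gene entered a fit when 4 or more of its libraries held 10 or more counts, and was tested by edgeR's quasi-likelihood test (edgeR 4.0.16, R 4.3.3, TMM factors) on the groups compared, with Benjamini-Hochberg adjustment over all genes tested. Calls needed adjusted p below 0.05 together with a log2 change beyond 1, the thresholds of the study. Printed CPM use TMM factors over all 48 libraries. The SE is the log2 change divided by the square root of F. CD45 was compared with the mean of CD4 and CD8, and interactions are differences of genotype effects.

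The depth of a library puts 3 counts at 0.124 to 0.237 CPM, and intervals of this kind cover counting error only. In 72 pairs of libraries within groups, 0 agreed within sampling noise. The fit was tested on simulated data, where the interaction fit recovered a smaller share of the changes put in than the fits of the other comparisons. Alternatives were DESeq2 1.42.0, transcript-length offsets, no filter, adjusted p alone, T-lineage scaling, a replicate block, a Y-linked term and leaving out each library. The Y-linked rule on Ddx3y and Eif2s3y was chosen after seeing the data. All 10 genes, the pathway list, the marker lists and the tests were chosen with earlier results of these data known. The genes named were all 10 members, called pathway genes from the 6 with the largest changes in a comparison, and genes among the 3 nearest in pattern to each of the 10 by Pearson correlation. Myc, Sh2b3 and Ptpn11 were named after their values were seen.

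Replicate numbers in the labels gave no stated pairing. Same-numbered libraries deviated together, with every correlation over 0.1, in CD8 against CD4 cells of WT TDLNs (0.28 to 0.654), WT TILs (0.12 to 0.595) and Yap-cKO TILs (0.135 to 0.535), and in CD45 against T cells of WT TILs (0.128 to 0.44).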

Additional observations from a re-analysis of the deposited data

Results flagged for a closer look

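In 9 of the 120 combinations of gene and group, 1 library lay far from the other 3 of its group (its gap to the nearest of them, as a share of the group's range, exceeded Dixon's limit for 4 values). Chance alone marks about 1 in 20 such groups.

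In Yap-cKO CD8 TILs this was replicate 1 for Il4ra (657.4 CPM, the others at 150.4 to 208.3), Il21r (545.7, others 256.7 to 294.6) and Jak1 (1449, others 757.2 to 837.2). Without that library the Jak1 difference between genotypes was no longer called.

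In WT CD4 TDLNs replicate 2 was highest for Il2rb (495.5 CPM, others 289.3 to 319.5) and for Jak3 (293.6, others 175.2 to 185).

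In the CD45 sort, Yap-cKO TIL replicate 1 was highest for Jak3 (171.7 CPM, others 108.2 to 116.5) and Cish (164, others 48.9 to 67.2). Socs1 stood out in WT CD45 TIL replicate 4 (65.5 CPM, others 14.1 to 19.9) and in Yap-cKO CD45 TDLN replicate 3 (26.7 CPM, others 14.9 to 16.2).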

How the results depend on the processing

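Counts here are of the 10 genes called. DESeq2 gave 1 (Cish) against 0 for genotype in CD4 TILs, beside 15% against 8.02% of all genes. In CD8 TILs it gave 3 (Il2rb, Il2rg and Jak1) against 1, beside 18.2% against 12.2%. In CD45 TILs it gave 1 (Il2rb) against 0, beside 3.87% against 0.991%. Between tissues in Yap-cKO CD4 cells the counts were 7 against 3, beside 22.7% against 18.5%. For CD8 against CD4 they were 2 against 1 in Yap-cKO TDLNs, beside 4.44% against 2.49%. In WT TILs they were 1 (Cish) against 0, beside 1.04% against 0.119%. Without the count filter, CD4 TILs gave 1 (Cish) and CD8 against CD4 in Yap-cKO TDLNs 2, beside 6.99% and 1.85% of all genes. T-lineage scaling gave 0 for genotype in CD8 TILs, 3 against 8 between tissues in WT CD8 cells and 5 against 3 in Yap-cKO CD4 cells. Over all genes it called 39.5%, 59% and 20.3% there. The Ddx3y and Eif2s3y term leaves WT replicate 4 alone against the Yap-cKO libraries and is not counted here. The adjusted p alone gave 7 against 4 between tissues in Yap-cKO CD45 cells, beside 55.9% against 40.3% of all genes. The cause of these differences was not tested.

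With a replicate block, genotype in CD8 TILs gave 0 of the 10 genes and 1 call over all genes in place of 1719, where the numbers are not known to pair libraries. Where correlations of same-numbered libraries hinted at pairing, the block gave 2 in CD8 against CD4 of WT TDLNs, 0 in WT TILs (with 103 calls over all genes in place of 17), 1 in Yap-cKO TILs and 2 in CD45 against T cells of WT TILs, as without it. Over all genes the block called 6.97%, 0.722%, 4.4% and 35.3% in those comparisons, in that order. The block gave 9 against 8 between tissues in WT CD8 cells, beside 36.1% against 37.7% of all genes. It gave 6 against 5 for CD45 against T cells in Yap-cKO TILs, beside 32.9% against 31.7%.

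Leaving out 1 library gave 0 to 3 for genotype in CD4 TILs (3 without Yap-cKO replicate 3) and 0 to 7 in CD8 TILs (7 without WT replicate 3). Calls over all genes ran from 332 to 3236 and from 1 to 2582 in these fits. Between tissues it gave 5 to 6 in WT CD4, 5 to 9 in WT CD8, 4 to 4 in WT CD45, 3 to 4 in Yap-cKO CD4, 1 to 4 in Yap-cKO CD8 (1 without TDLN replicate 4 or TIL replicates 2, 3 or 4) and 4 to 5 in Yap-cKO CD45 cells. Calls over all genes between tissues were 3541 to 5234, 3426 to 5691, 4646 to 5492, 1516 to 2436, 1151 to 2583 and 4798 to 5275, in that order. CD8 against CD4 gave 1 to 2 in WT TDLNs and 0 to 2 in Yap-cKO TDLNs, with 272 to 653 and 164 to 318 over all genes. CD45 against T cells gave 5 to 6 in Yap-cKO TDLNs, 1 to 3 in WT TILs and 5 to 6 in Yap-cKO TILs. Over all genes these were 2868 to 3639, 4375 to 5167 and 3936 to 4941 calls. The genotype comparisons in CD45 TILs and TDLNs and the interactions stayed at 0.

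Over the 10 genes in every comparison, T-lineage scaling turned 20 of 80 estimates, 4 of them called without it. Between genotypes these were Il4ra (-0.03), Stat5a (-0.26) and Stat5b (-0.34) in CD4 TILs and Jak3 (-0.03), Stat5a (-0.22), Stat5b (-0.16) and Socs1 (-0.10) in CD8 TILs. Between tissues they were Il2rg (0.24), Jak3 (0.94), Stat5b (0.08) and Socs1 (0.70) in WT CD4 and Jak1 (0.00), Jak3 (0.43) and Socs1 (0.15) in WT CD8 cells. In the interactions they were Jak1 (-0.38), Stat5a (-0.18) and Stat5b (-0.45) in CD4 and the same genes (-0.05, -0.08 and -0.18) in CD8 cells.

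The Ddx3y and Eif2s3y term, under which the WT side rests on replicate 4 alone, turned 20 of 60 genotype estimates. None of these was called without the term. They were Il2rg (0.24), Il4ra (0.62), Il21r (1.01), Stat5a (0.72) and Stat5b (0.54) in CD4 TDLNs. In CD8 TDLNs they were Il2rb (0.46), Il4ra (1.00), Il21r (1.33), Jak1 (-0.56), Jak3 (0.03), Stat5a (0.99), Stat5b (0.44) and Cish (0.42). In CD45 TDLNs they were Il2rb (0.27), Il2rg (0.46) and Il21r (0.34), and in CD45 TILs Il2rg (-0.12), Il4ra (-0.08), Stat5b (-0.07) and Socs1 (-0.93). The term over 4 Y-linked genes marked 34 libraries, gave the same 4 values in CD45 TILs and could not be fitted in CD45 TDLNs.

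DESeq2 turned 5 of 230 estimates, length offsets 4, no filter 4 and the block 4, all uncalled and near 0. These were Stat5b in CD8 TDLNs (0.01 by DESeq2, 0.00 without the filter, 0.03 with offsets) and in CD45 TDLNs (0.00), Socs1 between tissues in WT CD45 (-0.02) and Yap-cKO CD8 cells (0.00 by DESeq2, -0.01 with the block), and Jak3 in Yap-cKO CD45 cells (0.01, 0.05 and 0.01). Between sorts of Yap-cKO TILs they were Il21r (-0.02), Il2rb (-0.01) and Stat5a (0.00, 0.00, 0.08 and 0.01).

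Leaving out a library turned 87 of 2240 estimates, none of them called with all libraries. Among genes called under any setting this was Cish between tissues, which ran from -0.10 (without TIL replicate 4) to 0.47 in WT CD4 cells, and from -0.02 (without TDLN replicate 4 or TIL replicate 3) to 0.50 in WT CD8 cells. Under the other settings 1240 values kept direction and side of the threshold, 29 newly passed, 10 no longer passed and 61 turned. Depth limits only the lowest genes of the pathway list.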
